A study of Mus musculus with 6 samples.

Results

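Cholesterol synthesis and sterol regulation were followed in natural killer (NK) cells, cytotoxic lymphocytes of innate immunity, from the livers of mice. The set holds 30 genes, chosen by symbol from the 55414 genes of the deposited expression table: 18 enzymes of the mevalonate and sterol pathway, 5 genes that control the sterol regulatory element-binding proteins (SREBPs), 3 genes of sterol transport and uptake, and 4 genes of the liver X receptors (LXRs) and sterol efflux. All 30 were in the table and all 30 passed the filter on low counts. The treated cells came from wild-type mice given metformin, a glucose-lowering drug, at 200 mg per kg for 3 days, and the control cells from wild-type mice given phosphate-buffered saline (PBS). Each group had 3 RNA-seq libraries, and all cells are labelled day 3 and wild type. The sources used here do not give the animals' age, sex or strain, the gate used to isolate the cells, or whether each library came from a separate mouse. The p-values therefore reflect the spread among the 6 libraries, which may be technical.

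Cells make cholesterol from acetyl-CoA through mevalonate, isoprenoids, squalene and lanosterol. When sterol in the endoplasmic reticulum is low, SCAP carries the SREBPs to the Golgi, where they are cleaved and released to switch on genes of sterol synthesis and uptake; when sterol is high, the INSIG proteins hold SCAP back. Oxysterols activate the LXRs, which switch on transporters that export cholesterol. In mouse NK cells SREBP activity is known to support the metabolic response to cytokines.

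The libraries held 22152200 to 24266800 estimated reads with metformin and 24838300 to 30161200 with PBS. Levels are CPM, reads scaled to library size with trimmed-mean (TMM) factors, and fold changes are metformin over PBS, with standard errors (SE) of the edgeR fit across 15527 genes. The 10 NK and type 1 innate lymphoid markers were all detected, with sums of 16990 to 20102 CPM with metformin and 16509 to 17594 CPM with PBS. Single markers differed: Klrb1c, Nkg7 and Cd7 were higher in every metformin library than in every PBS library, and Prf1, Eomes and Tbx21 were lower. Among all genes tested, 9.49% were higher and 9.63% lower without overlap. Mean levels of Eomes were 212 CPM with metformin and 327 CPM with PBS, and those of Cd7 were 1518 and 917 CPM. Metformin 3 stood apart from the other 5 libraries: relative to the mean of all libraries, its expression had a Spearman rank correlation with gene length across genes of -0.42, against -0.11 and 0.13 in metformin 1 and 2 and 0.05 to 0.33 with PBS. Long genes thus read low in it. Its sum of 20 hepatocyte markers was 813 CPM, against 311 and 341 CPM in the other metformin libraries and 279 to 448 CPM with PBS. The sum of 20 markers of proliferation was lower in every metformin library than in every PBS library. It was 590 to 698 CPM with metformin and 779 to 1220 CPM with PBS (exact permutation test, two-sided, p = 0.1, which is the lowest value reachable with groups of 3). Of the 20, 15 were lower without overlap, against 9.63% of all genes tested, while Bub1b, Cdk1, Pcna, Mcm2 and Mcm5 overlapped. The 10 T cell markers summed to 181 to 327 CPM with metformin and to 133 to 204 CPM with PBS, with overlap. Cd3d, Cd3e, Cd8a and Trat1 were higher in every metformin library than in every PBS library and Lef1 was lower. The shares of all genes tested were 9.49% higher and 9.63% lower. Cd3e, a chain of the T cell receptor complex, was at 62.2, 40.6 and 24.3 CPM with metformin, against 6.92, 16.6 and 21.3 CPM with PBS. The part of these differences in the results on sterol genes was not tested.

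At an adjusted p of 0.05 no sterol gene passed in edgeR, and neither did any other gene (0 of 15527, 0%); 1610 genes (10.4%) had an unadjusted p under 0.05 in either direction, and DESeq2 called 299. At an unadjusted p under 0.05, 6 of the 30 genes (20%) were lower with metformin and 0 were higher, against 5.08% lower and 5.29% higher among all genes tested. The 6 were the enzyme genes Acat2, Hmgcs1, Idi1, Sqle and Cyp51 and the SREBP regulator Insig1. Every metformin library was below every PBS library in 6 of the 30 (20%), the same 6 genes, against 9.63% of all genes tested. That separation and the p come from the same libraries, so neither is support for the other. Above PBS without overlap lay 0 of the 30, against 9.49% of all genes. DESeq2 gave an unadjusted p under 0.05 to 7 of the 30 on the lower side, against 6% of all genes, and called Hmgcs1 and Cyp51 at an adjusted p of 0.05, where 2.51% of the 11906 genes with an adjusted p were called and 1.28% were called lower. The median log2 fold change was -0.13 over the 30 genes and 0.0053 over all genes tested. Of the 30, 25 were below 0 (21 with upper quartile scaling and 21 without PBS 2), against 49.1% of all genes. Single libraries did not separate by this count. Below the mean log2 CPM of PBS lay 20, 21 and 19 of the 30 in metformin 1, 2 and 3. In PBS 1, 2 and 3 the numbers were 24, 5 and 19. The members were chosen with earlier results of these data known, so these counts describe the list and carry no p of their own.

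**Figure D1:**
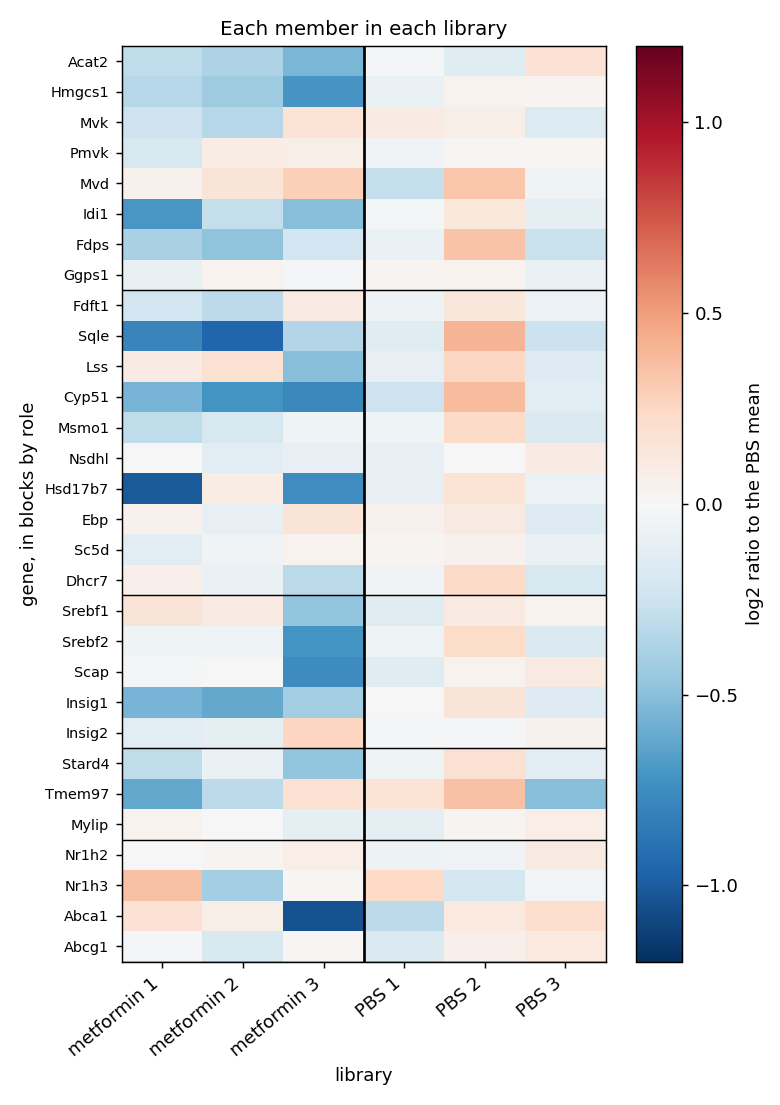
Heat map of the 30 genes, in blocks by role from mevalonate enzymes at the top to LXR and efflux genes at the bottom, in each of the 3 metformin and 3 PBS libraries. Colour is the log2 ratio of CPM to the mean log2 CPM of the PBS libraries; Acat2, Hmgcs1, Idi1, Sqle, Cyp51 and Insig1 are blue in all 3 metformin libraries, while Srebf2, Scap and Abca1 are dark blue in metformin 3 alone.

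The promoters of the genes that were lower are shown because SREBPs act through a sterol regulatory element, usually near a CCAAT box bound by NF-Y. Each is RefSeq's window from 250 bases before to 50 bases after the gene start, on GRCm38.p6; Sqle had no entry, and 25 of the 30 genes did. Capitals mark matches, on either strand, to TCACNCCAC, a form of the sterol regulatory element, and to CCAAT, which reads ATTGG on the other strand. Abca1 is printed beside them as the best-known target of the LXRs.
Acat2 (chr17:12960676-12960975, minus strand): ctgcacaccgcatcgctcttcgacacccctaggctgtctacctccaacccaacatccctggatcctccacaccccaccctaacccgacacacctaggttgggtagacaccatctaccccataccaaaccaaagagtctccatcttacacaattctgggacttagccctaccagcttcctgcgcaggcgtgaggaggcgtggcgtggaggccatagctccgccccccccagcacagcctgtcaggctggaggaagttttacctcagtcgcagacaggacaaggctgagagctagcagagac
Hmgcs1 (chr13:119690101-119690400, plus strand): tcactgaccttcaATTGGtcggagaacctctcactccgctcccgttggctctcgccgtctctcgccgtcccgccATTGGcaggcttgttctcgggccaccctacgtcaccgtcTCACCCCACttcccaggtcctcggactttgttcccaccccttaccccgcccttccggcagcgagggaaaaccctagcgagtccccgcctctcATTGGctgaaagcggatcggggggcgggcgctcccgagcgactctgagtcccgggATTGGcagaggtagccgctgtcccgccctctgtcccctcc
Idi1 (chr13:8885356-8885655, plus strand): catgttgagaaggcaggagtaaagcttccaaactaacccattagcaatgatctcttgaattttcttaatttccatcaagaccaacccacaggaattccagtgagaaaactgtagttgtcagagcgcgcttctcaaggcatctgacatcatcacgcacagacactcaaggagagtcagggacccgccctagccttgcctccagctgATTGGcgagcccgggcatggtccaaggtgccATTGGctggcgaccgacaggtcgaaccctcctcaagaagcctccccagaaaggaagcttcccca
Cyp51 (chr5:4104648-4104947, minus strand): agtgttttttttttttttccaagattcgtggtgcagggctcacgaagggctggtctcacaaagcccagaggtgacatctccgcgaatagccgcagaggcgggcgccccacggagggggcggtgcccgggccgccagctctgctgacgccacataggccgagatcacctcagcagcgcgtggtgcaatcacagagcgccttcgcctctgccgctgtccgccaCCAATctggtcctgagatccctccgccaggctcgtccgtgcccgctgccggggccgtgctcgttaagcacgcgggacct
Insig1 (chr5:28071162-28071461, plus strand): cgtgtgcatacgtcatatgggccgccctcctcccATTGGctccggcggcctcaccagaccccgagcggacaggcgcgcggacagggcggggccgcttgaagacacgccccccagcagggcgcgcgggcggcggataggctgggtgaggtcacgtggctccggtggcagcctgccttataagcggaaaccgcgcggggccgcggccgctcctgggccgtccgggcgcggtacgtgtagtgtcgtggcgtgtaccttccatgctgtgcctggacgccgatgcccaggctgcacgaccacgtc
Abca1 (chr4:53159846-53160145, minus strand): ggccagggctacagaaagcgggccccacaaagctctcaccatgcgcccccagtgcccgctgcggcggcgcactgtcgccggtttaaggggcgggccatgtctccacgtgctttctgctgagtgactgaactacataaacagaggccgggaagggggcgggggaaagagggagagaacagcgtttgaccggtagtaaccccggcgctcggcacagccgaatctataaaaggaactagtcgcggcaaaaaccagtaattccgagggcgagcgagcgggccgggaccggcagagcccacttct
The Hmgcs1 window held the only match to TCACNCCAC among the 25 genes, 137 bases before the start, where 1.44% of the 27025 genes in the table held one (1.24% of 32851 windows). A CCAAT box stood in the windows of 14 of 15 synthesis enzymes with an entry, Acat2 being the exception. It stood in 4 of 5 SREBP regulators and in 2 of 2 transport and uptake genes with an entry, Mylip among them. Of the 3 LXR and efflux genes with an entry, 0 held it. The share of all genes in the table was 41.1%, and a gene with several windows counts once if any holds the box. The windows printed for Acat2 and Abca1 hold neither motif, and in that of Hmgcs1 the motifs do not overlap. Another search, for 1 form of the DR4 repeat of the LXRs, matched none of the 25 genes, against 0.0962% of all genes. It allowed no mismatch within that form, and near variants were not searched. So strict and rare a pattern cannot decide whether these promoters, that of Abca1 included, hold an LXR repeat. A match is a string of letters and not a measured binding site, and genes of both kinds, lower or not, held CCAAT boxes.

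Of the 8 mevalonate enzymes, 3 had an unadjusted p under 0.05, all lower with metformin, against 5.08% lower among all genes tested. The median log2 fold change of the 8 was -0.26. Acat2 encodes the cytosolic thiolase that makes acetoacetyl-CoA. Its level was 34.6, 33.0 and 29.2 CPM in metformin 1, 2 and 3, against 42.1, 38.6 and 48.1 CPM in PBS 1, 2 and 3. The groups did not overlap, and the log2 fold change was -0.41 (SE 0.12; edgeR unadjusted p = 0.0106, adjusted p = 0.361). Hmgcs1 (ENSMUSG00000093930.3, chromosome 13, 120151915 to 120169796 in the deposited table) encodes the synthase that makes HMG-CoA. Hmgcs1 was at 52.7, 49.6 and 40.9 CPM with metformin, against 63.3, 68.8 and 68.2 CPM with PBS, so its highest metformin library was below its lowest PBS library. Mean levels were 47.7 ± 6.10 CPM with metformin and 66.7 ± 3.04 CPM with PBS (SD, n = 3 each), and the fitted log2 ratio was -0.48 (SE 0.12; adjusted p = 0.292 by edgeR and 0.033 by DESeq2). Idi1 encodes the isomerase that readies isopentenyl diphosphate for chain building. Idi1 was at 25.4, 33.8 and 28.8 CPM with metformin, against 40.6, 45.0 and 37.9 CPM with PBS, again without overlap (log2 fold change -0.49, SE 0.14; edgeR adjusted p = 0.323, DESeq2 adjusted p = 0.076).

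The other 5 mevalonate enzymes overlapped between the groups. Fdps, which makes farnesyl diphosphate, was at 30.2, 28.4 and 33.7 CPM with metformin, against 37.5, 50.3 and 32.9 CPM with PBS, where PBS 3 lay below metformin 3 (log2 fold change -0.39, SE 0.17; edgeR unadjusted p = 0.0511). Leaving out PBS 2 brought its log2 fold change to -0.19. The kinases Mvk and Pmvk, which phosphorylate mevalonate, and the decarboxylase Mvd had log2 fold changes of -0.13, -0.0035 and 0.15 (SE 0.24, 0.18 and 0.18). Ggps1 makes geranylgeranyl diphosphate, a lipid used for protein prenylation, on a branch away from sterols. It was at 56.1 to 61.2 CPM with metformin and 56.4 to 61.5 CPM with PBS (log2 fold change -0.02, SE 0.09, edgeR adjusted p = 0.953). Ggps1 overlaps Arid4b on the opposite strand by 257 bases, and Arid4b had 151% of its reads, so the Ggps1 value is uncertain. Acat2, Hmgcs1 and Idi1 thus lay below PBS in every library, while the kinases and the decarboxylase that act between Hmgcs1 and Idi1 overlapped with PBS.

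**Figure D2:**
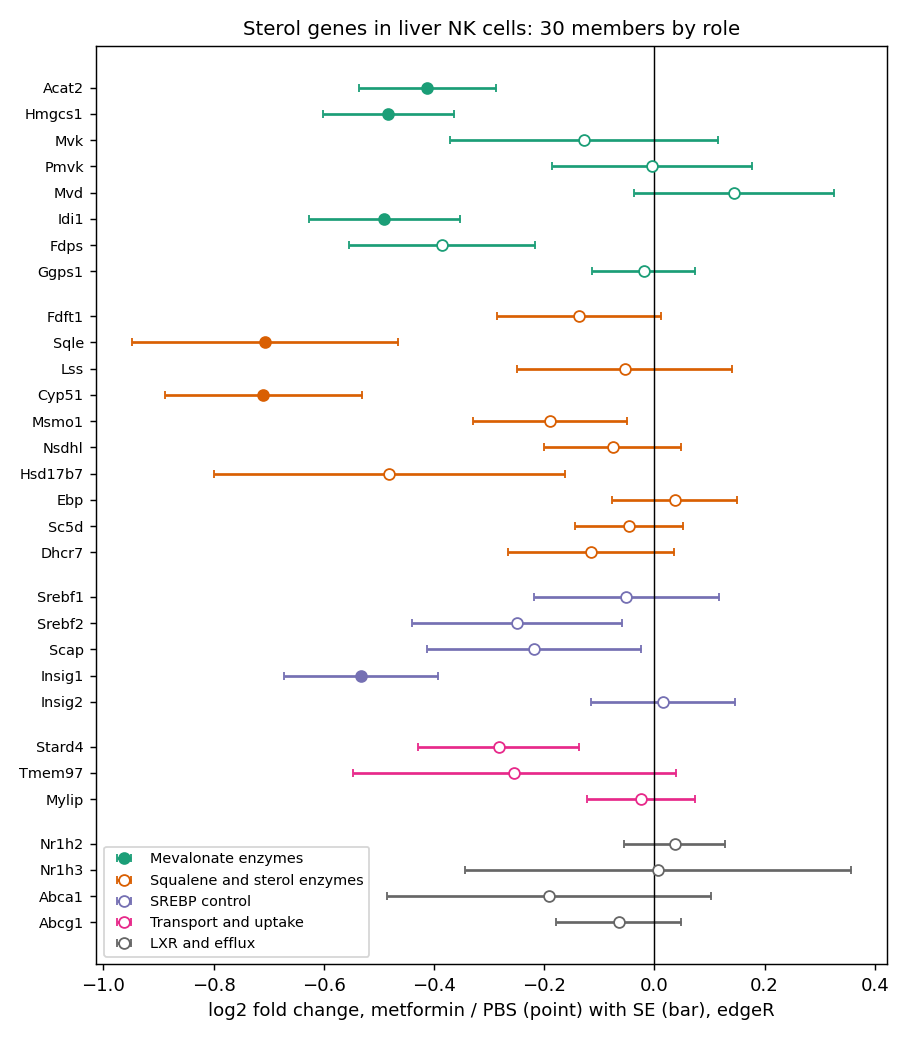
Log2 fold change, metformin over PBS (x axis, edgeR), of each of the 30 genes (y axis), coloured by role, with its SE as a bar. Filled points have an unadjusted p under 0.05; they are Acat2, Hmgcs1, Idi1, Sqle, Cyp51 and Insig1, all left of 0, and no LXR or efflux gene is among them.

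Of the 10 enzymes from squalene to cholesterol, 2 had an unadjusted p under 0.05, both lower with metformin, against 5.08% lower among all genes tested. The median log2 fold change of the 10 was -0.13. Sqle (ENSMUSG00000022351.15, chromosome 15, 59186926 to 59203041) encodes squalene epoxidase, a rate-limiting step. Its level was 9.94, 8.93 and 13.5 CPM with metformin, against 15.6, 22.9 and 14.4 CPM with PBS. The gap between the highest metformin and the lowest PBS library was narrow, and PBS 2 was far above the others (log2 fold change -0.71, SE 0.24; edgeR adjusted p = 0.419). Without PBS 2 the log2 fold change of Sqle was -0.48. Cyp51 (ENSMUSG00000001467.6, chromosome 5, 4131145 to 4154746) encodes the lanosterol demethylase. Cyp51 was at 24.4, 21.8 and 21.0 CPM with metformin, against 30.3, 46.8 and 32.8 CPM with PBS, with a wide gap between the groups. Means were 22.4 ± 1.77 CPM with metformin and 36.6 ± 8.88 CPM with PBS (SD, n = 3 each), and the fitted log2 ratio was -0.71 (SE 0.18; adjusted p = 0.302 by edgeR and 0.026 by DESeq2). Leaving out PBS 2 brought it to -0.50. Cyp51 overlaps Akap9 on the opposite strand by 166 bases, and Akap9, with 220% of its reads, had a log2 fold change of 0.05 (SE 0.13). The sources used here do not say whether counting used strand, so reads in that overlap cannot be told apart.

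The other 8 sterol enzymes had overlapping groups. Fdft1, squalene synthase, and Lss, which closes the sterol rings, had log2 fold changes of -0.14 and -0.05 (SE 0.15 and 0.20). Lss, with the longest listed gene length of the enzymes at 6992 bases, was at 54.1 and 57.2 CPM in metformin 1 and 2 and 35.5 CPM in metformin 3, against 45.4 to 60.1 CPM with PBS; without metformin 3 its log2 fold change was 0.13. Msmo1, Nsdhl and Hsd17b7, which remove the methyl groups of lanosterol products, had log2 fold changes of -0.19, -0.08 and -0.48, the last with levels of 3.24, 6.93 and 3.90 CPM with metformin, against 6.11, 7.31 and 6.23 CPM with PBS (SE 0.32). Single libraries moved 2 of these values: Hsd17b7 was at -0.88 without metformin 2 and at -0.28 without metformin 1, and Msmo1 was at -0.07 without PBS 2. Ebp, Sc5d and Dhcr7, the late isomerase, desaturase and reductase, had log2 fold changes of 0.04, -0.05 and -0.11 (SE 0.11, 0.10 and 0.15). Fdft1 overlaps the cathepsin B gene Ctsb by 774 bases, and Ctsb had 1577% of its reads, so the Fdft1 value is uncertain.

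**Figure D3:**
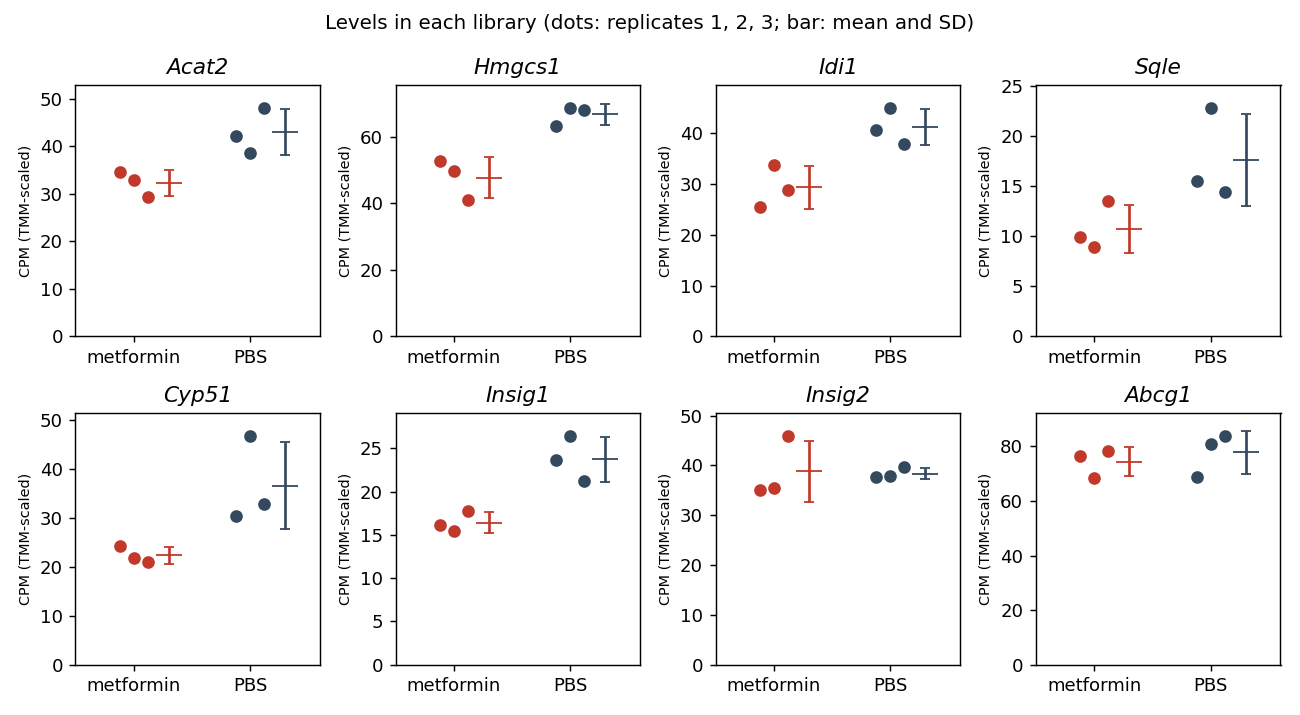
CPM (y axis, from 0) of 8 genes in the 3 metformin libraries (left in each panel) and the 3 PBS libraries (right), with the mean and SD beside the dots. Metformin lies below PBS without overlap in Acat2, Hmgcs1, Idi1, Sqle, Cyp51 and Insig1, while Insig2 and Abcg1 overlap.

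Among the 5 SREBP control genes, Insig1 alone had an unadjusted p under 0.05, on the lower side, against 5.08% lower among all genes tested. Insig1 and Insig2 encode the pair of proteins that retain SCAP, and Insig1 is itself a classic SREBP target, while Insig2 is known to depend little on SREBP. Insig1 (ENSMUSG00000045294.12, chromosome 5, 28276361 to 28283660) was at 16.1, 15.4 and 17.7 CPM with metformin, against 23.6, 26.4 and 21.2 CPM with PBS. These groups did not overlap, and means of 16.4 ± 1.19 CPM with metformin and 23.8 ± 2.61 CPM with PBS (SD, n = 3 each) gave a log2 ratio of -0.53 (SE 0.14; adjusted p = 0.308 by edgeR and 0.054 by DESeq2). Insig2 was at 35.0, 35.5 and 45.9 CPM with metformin, against 37.6, 37.8 and 39.7 CPM with PBS. Metformin 3 was its highest library and metformin 1 and 2 its lowest (log2 fold change 0.02, SE 0.13; -0.13 without metformin 3 and -0.16 on the deposited TPM). The difference between the fold changes of Insig1 and Insig2 was not tested.

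The transcription factors and their escort did not separate. Srebf2, which mainly drives sterol genes, was at 156, 156 and 98.7 CPM with metformin, against 156, 189 and 143 CPM with PBS (log2 fold change -0.25, SE 0.19), and at -0.07 without metformin 3. Scap was at 107, 108 and 64.0 CPM with metformin, against 97.6, 111 and 116 CPM with PBS (-0.22, SE 0.19; -0.02 without metformin 3). Srebf1, whose products drive fatty acid and sterol genes, was at 123, 118 and 79.8 CPM with metformin, against 100.03, 119 and 114 CPM with PBS (-0.05, SE 0.17; 0.12 without metformin 3). In each of these 3 genes metformin 3 was the lowest of the 6 libraries, and metformin 1 and 2 lay within or above the range of PBS. SREBPs are controlled mainly by cleavage, which messenger RNA does not show.

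The 3 transport and uptake genes overlapped between the groups. Stard4, a carrier of sterol between membranes and an SREBP target, was at 24.3, 28.4 and 21.7 CPM with metformin, against 29.0, 34.1 and 27.5 CPM with PBS (log2 fold change -0.28, SE 0.15; edgeR unadjusted p = 0.0874). Tmem97, the sigma-2 receptor that binds the lysosomal sterol exporter, was at 6.96 to 12.1 CPM with metformin and 7.45 to 13.5 CPM with PBS. Mylip, an LXR target whose product IDOL marks lipoprotein receptors for degradation, was at 158, 155 and 142 CPM with metformin, against 142, 158 and 163 CPM with PBS (-0.02, SE 0.10).

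None of the 4 LXR and efflux genes had an unadjusted p under 0.05, against 10.4% of all genes tested in either direction. Their median log2 fold change was -0.03. Nr1h2, the widely expressed LXR-beta, was at 148, 151 and 156 CPM with metformin, against 142, 143 and 159 CPM with PBS (log2 fold change 0.04, SE 0.09). Nr1h3, LXR-alpha of liver and macrophages, was near the floor, at 2.54, 1.5 and 2.02 CPM with metformin, against 2.36, 1.72 and 1.95 CPM with PBS (0.01, SE 0.35). Abcg1, which exports cholesterol to mature high-density lipoprotein, was at 76.4, 68.3 and 78.5 CPM with metformin, against 68.7, 80.9 and 83.8 CPM with PBS (-0.06, SE 0.11). Abca1, which loads cholesterol onto lipid-poor apolipoprotein, was at 61.8, 57.7 and 26.6 CPM with metformin, against 44.2, 59.4 and 63.1 CPM with PBS. Metformin 3 alone was far below the rest, in the gene with the longest listed length of the 30, 10262 bases (log2 fold change -0.19, SE 0.29; 0.10 without metformin 3 and -0.09 with the gene length trend removed). Macrophages also express Abca1, Abcg1 and Nr1h3: the 14 macrophage and Kupffer cell markers, all detected, summed to 53.3 to 120 CPM with metformin, highest in metformin 3, and to 41.4 to 63.0 CPM with PBS. Of the 14, Adgre1, Marco and C1qa were higher in every metformin library than in every PBS library, and Csf1r and Cd163 were lower in every one. Among all genes tested, 9.49% were higher and 9.63% lower without overlap. Clec4f, Folr2 and Mrc1 stayed under 1 CPM in all 6 libraries. Adgre1, which encodes F4/80, was at 11.4, 11.1 and 14.7 CPM with metformin, against 2.5, 7.02 and 6.16 CPM with PBS, and C1qb reached 26.2 CPM in metformin 3. The part of such cells in the efflux values was not tested, and in bulk RNA fewer cells of a type and less RNA per cell cannot be told apart.

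Synthesis was set against efflux within each library, as the mean log2(CPM + 1) of the 18 enzymes and of the pair Abca1 and Abcg1. The synthesis mean was 4.64, 4.69 and 4.68 in metformin 1, 2 and 3, against 4.83, 5.04 and 4.81 in PBS 1, 2 and 3. All 3 metformin values were below all 3 PBS values, and the group difference was -0.23. The efflux mean was 6.12, 5.99 and 5.55 with metformin, against 5.81, 6.14 and 6.20 with PBS, with a group difference of -0.16 and overlap. Synthesis minus efflux was -1.49, -1.31 and -0.87 with metformin, against -0.98, -1.09 and -1.40 with PBS. The groups overlapped fully in this measure, averaging -1.22 ± 0.32 with metformin and -1.16 ± 0.22 with PBS (SD, n = 3 each), a difference of -0.06. Without metformin 3 the difference was -0.24. The 13 enzymes without an unadjusted p under 0.05 overlapped on their own: relative to the PBS mean they averaged -0.18, -0.09 and -0.09 on the log2 scale with metformin, against -0.05, 0.15 and -0.10 with PBS. The enzymes set aside, Acat2, Hmgcs1, Idi1, Sqle and Cyp51, were picked by their p in these same libraries. The overlap of the other 13 therefore does not show which enzymes the separation rested on. Synthesis relative to efflux differed by less than the spread between libraries. Since the genes were chosen with results known, these means carry no p.

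**Figure D4:**
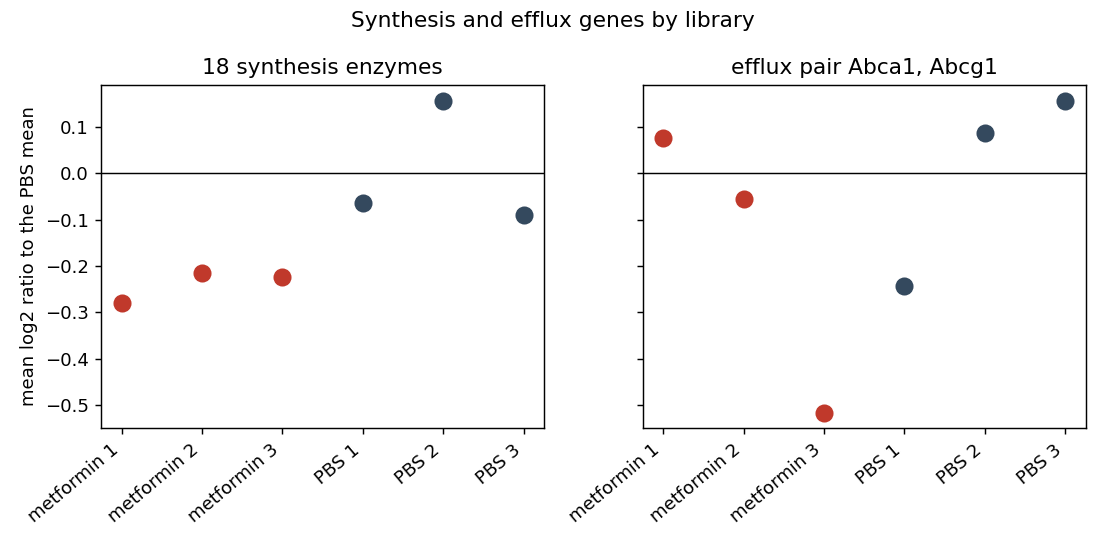
Mean log2 ratio to the PBS mean (y axis) of the 18 synthesis enzymes (left panel) and of the efflux pair (right panel) in the 3 metformin and 3 PBS libraries. The enzymes lie at -0.28, -0.22 and -0.22 in metformin 1, 2 and 3, below the PBS libraries at -0.06, 0.16 and -0.09; the efflux pair lies at 0.07, -0.06 and -0.52 with metformin and at -0.24, 0.09 and 0.16 with PBS.

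The members also differed in level. On the deposited TPM values, which account for gene length, and ranked by the mean of all 6 libraries, Nr1h2 was highest at 135 ± 7.07 TPM with metformin and 149 ± 15.3 TPM with PBS (SD, n = 3 each). Mylip, at 71.5 TPM with metformin and 78.6 TPM with PBS, and Ebp, at 65.8 and 73.7 TPM, came next; Mylip and Ebp differed from each other by less than the SD of either gene within each group. Srebf2 and Fdps followed, at 48.4 and 38.4 TPM with metformin and 62.4 and 56.1 TPM with PBS. The lowest were Nr1h3, at 2.08 TPM with metformin and 1.85 TPM with PBS, Hsd17b7 and Mvk. The 6 genes that were lower with metformin ranked between 11 and 26 of 30 in level, so they were neither the most nor the least abundant. Counts of 11 of the 30 genes were not whole in at least 1 library of the deposited table (any decimal part, with no tolerance), Acat2, Hmgcs1, Idi1 and Cyp51 among them, as happens when reads are shared between genes or copies; those of Sqle and Insig1 were whole.

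No gene of the related lists passed edgeR's adjusted p of 0.05, and the lists were described by their counts and not tested against other genes. Of the fatty acid synthesis genes that SREBPs drive, all 12 had log2 fold changes below 0, with a median of -0.40, and 4 of 12 (33.3%) had an unadjusted p under 0.05, all lower, against 5.08% of all genes tested. In 8 of 12 every metformin library was below every PBS library, against 9.63% of all genes tested. Scd2, a stearoyl-CoA desaturase, was at 72.8, 67.8 and 49.4 CPM with metformin, against 110, 169 and 121 CPM with PBS (log2 fold change -1.07, SE 0.20; edgeR adjusted p = 0.207, DESeq2 adjusted p = 7.7e-05). Its paralog Scd1 was at 25.7, 16.7 and 18.3 CPM with metformin, against 37.9, 39.0 and 32.3 CPM with PBS (-0.85, SE 0.18; edgeR adjusted p = 0.246, DESeq2 adjusted p = 0.0038). Acss2, which makes acetyl-CoA from acetate, was at 134, 117 and 109 CPM with metformin, against 158, 152 and 163 CPM with PBS (-0.39, SE 0.11; edgeR adjusted p = 0.312, DESeq2 adjusted p = 0.044).

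Of 21 genes of sterol uptake and traffic, 3 (14.3%) were lower with metformin at an unadjusted p under 0.05, against 5.08% of all genes, with a median of -0.14. On the higher side the count was 1 (4.76%), no more than the 5.29% of all genes. Scarb1, the scavenger receptor that takes up sterol esters from high-density lipoprotein, was at 7.44, 10.6 and 6.05 CPM with metformin, against 19.1, 15.3 and 12.9 CPM with PBS (log2 fold change -0.97, SE 0.26; edgeR adjusted p = 0.308, DESeq2 adjusted p = 0.024). The 1 on the higher side was Soat2, which esterifies cholesterol for storage, at 68.0, 65.4 and 67.1 CPM with metformin, against 47.5, 56.9 and 52.7 CPM with PBS (0.35, SE 0.10; edgeR adjusted p = 0.344, DESeq2 adjusted p = 0.130). Of the 14 tested LXR partners, targets and oxysterol enzymes, 1 (7.14%) was higher and 0 lower (median -0.04), a share near the 5.29% of all genes. It was Pltp, the phospholipid transfer protein and an LXR target, at 21.9, 23.1 and 28.5 CPM with metformin, against 14.7, 18.4 and 20.1 CPM with PBS (0.47, SE 0.17; edgeR adjusted p = 0.438). Its highest library was metformin 3, the library with the highest sum of hepatocyte markers. Metformin 1 and 2 were also above every PBS library for Pltp. Their hepatocyte sums of 341 and 311 CPM lay within the PBS range of 279 to 448 CPM. The part of hepatocyte RNA in the Pltp values was not tested.

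The remaining lists held 0 genes at an unadjusted p under 0.05 in either direction by edgeR. DESeq2 put 1 gene of each list under that threshold on the lower side, against 6% of all genes. The 13 genes of SREBP cleavage and sterol-driven degradation had a median of -0.11, with the segregase Vcp nearest, at 500 ± 48.8 CPM with metformin and 585 ± 37.3 CPM with PBS (SD, n = 3 each; edgeR unadjusted p = 0.0637). The 15 genes that use isoprenoids, for protein prenylation, dolichol and ubiquinone, had a median of -0.05, with the Rab escort gene Chm nearest, at 31.7 ± 5.27 CPM with metformin and 39.4 ± 1.41 CPM with PBS (edgeR unadjusted p = 0.0501). The 5 tested of 6 other sterol enzymes had a median of 0.03; the sterol reductase gene Lbr was at 511 ± 70.9 CPM with metformin and 576 ± 28.6 CPM with PBS.

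**Figure D5:**
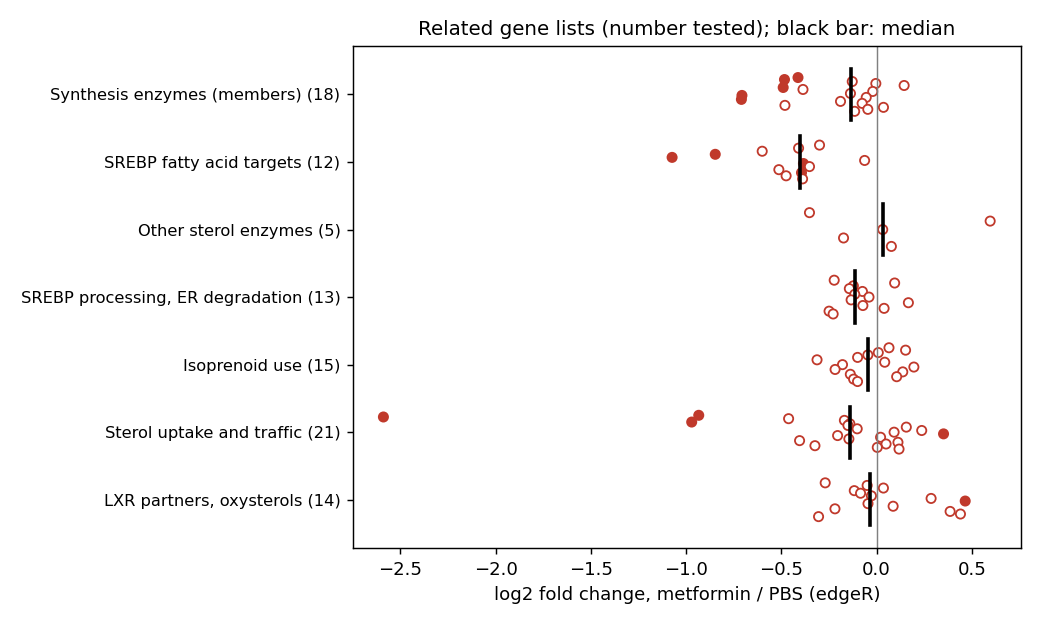
Log2 fold change, metformin over PBS (x axis, edgeR), of the 18 synthesis enzymes and of the tested genes of 6 related lists (y axis, number tested in brackets), with each list's median as a black bar. Filled points have an unadjusted p under 0.05; the SREBP fatty acid targets lie left of 0 throughout, with a median of -0.40.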

How the data were processed

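Messenger RNA of liver NK cells was sequenced in 3 metformin and 3 PBS libraries; RNA was column-purified and libraries made by SMART-seq, per the labels' protocols. DRAGEN (version unstated) and 2 builds, GRCm39 and mm10, appear in the submitters' processing notes without a role. Strand and filters are not given in the sources used. The authors deposited 1 table with an estimated count and a TPM value per gene and library, gene length and position; the estimated counts are not normalized, and the TPM values keep no depth. Coordinates of genes are as deposited; those of promoters are GRCm38.p6. Of the value columns, 0 were left without a sample.

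After rounding, the estimated counts were fitted by edgeR 4.0.16 quasi-likelihood (filterByExpr, then TMM; group as the sole term) under R 4.3.3, which left 15527 of 55414 genes, with DESeq2 1.42.0 and limma 3.58.1 as alternatives. Adjusted p-values follow Benjamini and Hochberg over all genes tested. The common biological coefficient of variation was 27.3%. Chi-square per degree of freedom between replicates was 14.7 to 63.6, above sampling noise, and each library counted as 1 sample. The test was tried on simulated counts. The 30 genes, the lists and the tests were chosen with earlier results of these data known. All 30 genes are named; of each related list, up to 3 with the smallest p could be named, and some genes that this rule selects are not reported here. Other settings tried were DESeq2, 2 other scalings, no filter, limma on log2(deposited TPM + 0.5), removal of a lowess trend (span 0.3) of expression on gene length, the replicate number as a block, and each library left out.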

Additional observations from a re-analysis of the deposited data

How the results depend on the processing

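Over the 13 alternatives, the members lower at an unadjusted p under 0.05 numbered 5 to 7 and those higher 0. Acat2, Hmgcs1, Idi1, Cyp51 and Insig1 were at p under 0.05 in all of them by edgeR, DESeq2 or limma; Sqle missed it with the length trend removed and without PBS 2, metformin 1 or metformin 2. At an adjusted p of 0.05, 2 members passed with DESeq2, Hmgcs1 and Cyp51, and 0 in every other setting. The number of all genes called was 299 with DESeq2, 1 with no filter, 1 with the length trend removed, 3 with the replicate block, and 0 to 1 with a library left out. Same-numbered libraries deviated together at correlations of 0.17, 0.076 and 0.17 across genes, so the labels' numbers were not taken as pairs; with the replicate block 6 members were lower and 0 passed. On the deposited TPM, where the median of all genes shifted to -0.093, the median log2 fold change was -0.29 for the synthesis enzymes and -0.14 for the LXR and efflux genes. With a library left out these medians were -0.27 to -0.074 and -0.14 to 0.014; that of the enzymes was -0.27 without metformin 3, -0.21 without PBS 3 and -0.074 without PBS 2, and that of the LXR and efflux genes was -0.14 without metformin 1. Synthesis minus efflux was -0.24 to 0.069 with a library left out and -0.18 with the length trend removed. Log2 fold changes that turned sign belonged to genes whose SE exceeded the fold change in the edgeR fit. With library size only they were Pmvk 0.011. With upper quartile scaling they were Pmvk 0.045, Ggps1 0.028, Sc5d 0.0040, Mylip 0.020. With no filter they were Insig2 -0.0017, Nr1h3 -0.0083. On the deposited TPM they were Lss 0.11, Ebp -0.16, Insig2 -0.16, Nr1h2 -0.14. With the length trend removed they were Ggps1 0.072, Lss 0.078, Ebp -0.059, Sc5d 0.077, Srebf1 0.027, Mylip 0.00042, Nr1h2 -0.032, Nr1h3 -0.062, Abcg1 0.095. With the replicate block they were Nr1h3 -0.011. With a library left out the ranges were Pmvk -0.056 to 0.076, Ggps1 -0.061 to 0.0065, Nr1h3 -0.20 to 0.18, Lss -0.18 to 0.13, Ebp -0.041 to 0.10, Srebf1 -0.17 to 0.12, Insig2 -0.13 to 0.078, Mylip -0.091 to 0.015, Abca1 -0.41 to 0.10, Nr1h2 -0.0052 to 0.087, Dhcr7 -0.21 to 0.0096. The cause was not tested. At 22152200 to 30161200 reads, depth limits Nr1h3, Mvk and Hsd17b7 most.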
